A study of Homo sapiens with 4 samples.

Results

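The AP-1 and EGR immediate early genes were followed in MDA-MB-468 mammospheres. The 10 genes, taken by name from the 26475 gene symbols counted, were FOS, FOSB, FOSL1, FOSL2, JUN, JUND, EGR1, EGR3, IER2 and IER3. MDA-MB-468 is an established human breast carcinoma line of the basal-like, triple-negative kind, and mammospheres are the floating spheres that its cells form in low-attachment culture. The 4 conditions were sequenced with 1 library each, all after a week in mammosphere medium with B27 and EGF. CTL was the control pool without treatment, CTL+dox the same pool with doxycycline, gRNA2 the pool carrying an inducible guide against TCOF1 without treatment, and gRNA2+dox that pool with doxycycline. The first 3 are labelled wild type and the last a knockout of TCOF1, the gene for the nucleolar protein treacle. All cells carried lentiviral Cas9 with mCherry and a doxycycline-inducible guide vector with eGFP, and they were sorted for both colours as pools rather than grown from single clones. Each library came from several pooled plates. The 2 pools were transduced and sorted separately, so guide, pool and culture cannot be told apart between CTL and gRNA2.

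Immediate early genes are transcribed within minutes of a growth factor or stress signal, without new protein synthesis. Receptors such as EGFR act through ERK and other MAP kinases on factors already bound at the promoters, above all SRF with its ELK partners at CArG boxes and CREB at cyclic AMP response elements. FOS and JUN proteins pair through leucine zippers to form AP-1, which binds TGACTCA or TGACGTCA, while EGR proteins bind GC-rich sites through zinc fingers. FOSL1 and FOSL2 outlast the first wave in many cells, and FOSL1 is a known feature of basal-like breast cancer. IER2 and IER3 are induced by the same signals: IER2 is a small nuclear protein, and IER3 is a stress-induced protein linked to cell survival.

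The promoters of EGR1, FOSB and FOS are shown because EGR1 and FOSB had nearly the same pattern over the 4 libraries and FOS did not. A link between these promoters and the pattern was not tested. Each is the stretch of 150 bases just before the transcription start in RefSeq on GRCh38.p14, read 5′ to 3′ on the gene's strand, all 3 on the forward strand. Capitals mark CArG boxes, TGACGT on either strand (the core of a cyclic AMP response element) and TATAAA.
EGR1, chr5:138465329-138465478: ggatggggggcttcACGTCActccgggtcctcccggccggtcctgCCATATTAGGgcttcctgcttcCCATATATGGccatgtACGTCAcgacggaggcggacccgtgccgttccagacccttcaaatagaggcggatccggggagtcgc
FOSB, chr19:45467846-45467995: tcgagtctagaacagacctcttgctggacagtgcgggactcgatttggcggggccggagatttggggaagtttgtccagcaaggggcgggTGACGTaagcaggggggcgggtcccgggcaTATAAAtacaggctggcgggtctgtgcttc
FOS, chr14:75278678-75278827: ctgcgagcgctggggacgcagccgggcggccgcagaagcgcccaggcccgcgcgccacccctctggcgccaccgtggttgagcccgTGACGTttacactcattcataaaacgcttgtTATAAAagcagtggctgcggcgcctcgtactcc

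In the RefSeq promoter windows (250 bases before to 50 after the start), 7 of the 10 genes had an entry, and FOSL1, EGR3 and IER3 had none. TGACGT, searched on both strands, was a later addition to the planned motifs. It was in 5 of the 7 (FOS, FOSB, FOSL2, JUND and EGR1) and in 7.97% of all 34796 promoters. Its first base lay 64 bases before the start in FOS (position -64), 60 before in FOSB (-60) and at -136 and -67 in EGR1. Within the window, a CArG box was in EGR1 alone of the 7, starting at -105 and -83, against 1.30% of all promoters. Sequence farther from the start was not searched, so a CArG box lying there in another gene would be missed. TATAAA was in FOS at -33 and FOSB at -30 (11.6% of promoters). TGACGTCA, the planned motif that contains TGACGT, was in 1 of the 7, JUND (1.84%). TGACTCA was in FOSL2 (4.96%) and the EGR site GCGNGGGCG in EGR1 at -198 (9.43%). These are matches of letters and not measured binding, and JUN and IER2 held none of the 6 motifs in the window.

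FOSL1 also bears on the gene that was knocked out, since the study names it among candidate factors for e1, an enhancer upstream of TCOF1. The e1 region, from 149696352 to 149697550 on chromosome 5 of GRCh37 (1199 bases), holds the AP-1 site TGACTCA at 4 places on either strand, which are shown with 3 bases on each side as read on the forward strand, the site in capitals (TGAGTCA where it lies on the reverse strand).
e1 site 1, chr5:149696741-149696753: gtcTGAGTCAtta
e1 site 2, chr5:149696878-149696890: cccTGAGTCAccg
e1 site 3, chr5:149696907-149696919: ctgTGAGTCAgcg
e1 site 4, chr5:149697083-149697095: ggaTGACTCAgag
In the RNA, FOSL1 and TCOF1 did not follow the same order of libraries, as their values below show. An effect of FOSL1 on TCOF1 was not tested, and in gRNA2+dox TCOF1 was itself the target of the induced guide.

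Reads on genes summed to between 19960644 (CTL) and 26322847 (gRNA2) per library. TCOF1 had 49.9 CPM in CTL and 33.5 in CTL+dox against 50.6 in gRNA2 and 20.0 in gRNA2+dox (437 to 1318 counts), so that it was lower with doxycycline in both pools (log2 ratio -0.58 in CTL cells and -1.34 in gRNA2 cells). CPM stands for the counts of a gene scaled to a common library size of 1000000 reads on genes. The 9 markers of an epithelial line summed to 19029 to 21294 CPM, and ESR1, PGR and ERBB2 together to 13.0 to 15.0 CPM. Of other cell types, 7 blood cell markers summed to 107 to 129 CPM, nearly all of it CD68, with HBB at 0, and 8 fibroblast and endothelial markers to 17.6 to 22.6 CPM with CDH5 at 0. In RNA from whole cultures, fewer cells of a type and less RNA per cell cannot be told apart.

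IER3 had the highest level of the 10 genes in every library when levels were divided by transcript length. In CTL+dox the levels per length were 2770 CPM per kb for IER3, 207 for FOSL1, 176 for IER2, 120 for JUND, 33.5 for FOSL2, 32.0 for JUN, 13.8 for EGR1, 8.82 for FOSB, 8.12 for FOS and 1.72 for EGR3. This order was the same in CTL and gRNA2, whereas in gRNA2+dox JUN (40.6 CPM per kb) stood just above FOSL2 (40.2). FOSB and FOS, the other close pair, could not be told apart in CTL or CTL+dox, where the ratio of FOSB to FOS was 1.13 (0.995 to 1.28) and 1.09 (0.959 to 1.23). In gRNA2 the same ratio was 1.52 (1.37 to 1.68) and in gRNA2+dox 1.20 (1.07 to 1.34). The values in parentheses after a ratio are 95% intervals computed from the reads alone (exact Clopper-Pearson, except where a difference of 2 ratios is given). Such intervals hold the counting error and nothing of the variation between cultures, because no condition had a replicate, and no p-value is given.

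Among the FOS genes, FOSB stood at 37.9 CPM in CTL and 33.3 in CTL+dox, against 51.9 in gRNA2 and 43.9 in gRNA2+dox (774, 750, 1351 and 959 counts). It encodes an AP-1 subunit of the first wave and lies on chromosome 19 from 45467996 to 45475179 of GRCh38, in 4 exons. Its exons overlap the span of the ERCC1 gene, introns included, and whether they overlap exons of ERCC1 was not examined. The counts took no account of strand, so reads in any exon shared by both genes could not be assigned. Both gRNA2 libraries were above both CTL libraries, and in each pool the doxycycline library was the lower one. FOSL1 (chromosome 11, 65892049 to 65900545, reverse strand), which encodes FRA-1, stood at 370, 352, 471 and 439 CPM in the same order of libraries. It had the same order as FOSB, with 7560 to 12277 counts behind each value. FOSL2, which encodes FRA-2, stood at 241, 225, 263 and 270 CPM, with both gRNA2 libraries above both CTL libraries but gRNA2+dox highest. FOS (chromosome 14, 75278828 to 75282230), the founding member of the family, had 18.8, 17.1, 19.1 and 20.4 CPM (383 to 497 counts). The CTL and gRNA2 values of FOS differed by less than counting error.

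Of the JUN genes, JUN (chromosome 1, 58780791 to 58784047, a single exon) stood at 105 CPM in CTL and 104 in CTL+dox, against 124 in gRNA2 and 132 in gRNA2+dox. Its protein is the main partner of FOS, and both gRNA2 libraries were higher than both CTL libraries. JUND (chromosome 19, 18279694 to 18281622) stood at 257, 232, 249 and 268 CPM. It encodes the JUN protein that resting cells also make, and it was the gene of the 10 in which the pools overlapped, gRNA2 lying between the CTL libraries.

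EGR1 (chromosome 5, 138465479 to 138469303) had the widest range of the 10 genes, 1.60-fold from lowest to highest library. This zinc finger factor, a direct target of ERK and SRF, stood at 51.0 CPM in CTL and 43.3 in CTL+dox, against 69.4 in gRNA2 and 56.6 in gRNA2+dox (1042, 976, 1809 and 1237 counts). EGR1 was lowest in CTL+dox and highest in gRNA2, as FOSB, FOSL1 and IER3 were, although in IER3 the gRNA2 libraries were nearly level. EGR3, itself a target of EGR1 in many cells, had only 145 to 266 counts and stood at 7.10, 7.77, 10.2 and 8.33 CPM. It was the only one of the 10 genes whose lowest library was CTL rather than CTL+dox.

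IER2 (chromosome 19, 13150411 to 13154911) stood at 381, 372, 415 and 417 CPM, the narrowest range at 1.12-fold. IER3 (chromosome 6, 30743199 to 30744547) stood at 3652, 3426, 3956 and 3926 CPM, with 74576 to 103050 counts. In both genes the gRNA2 libraries lay above the CTL libraries, and the 2 gRNA2 libraries were nearly level.

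**Figure D1:**
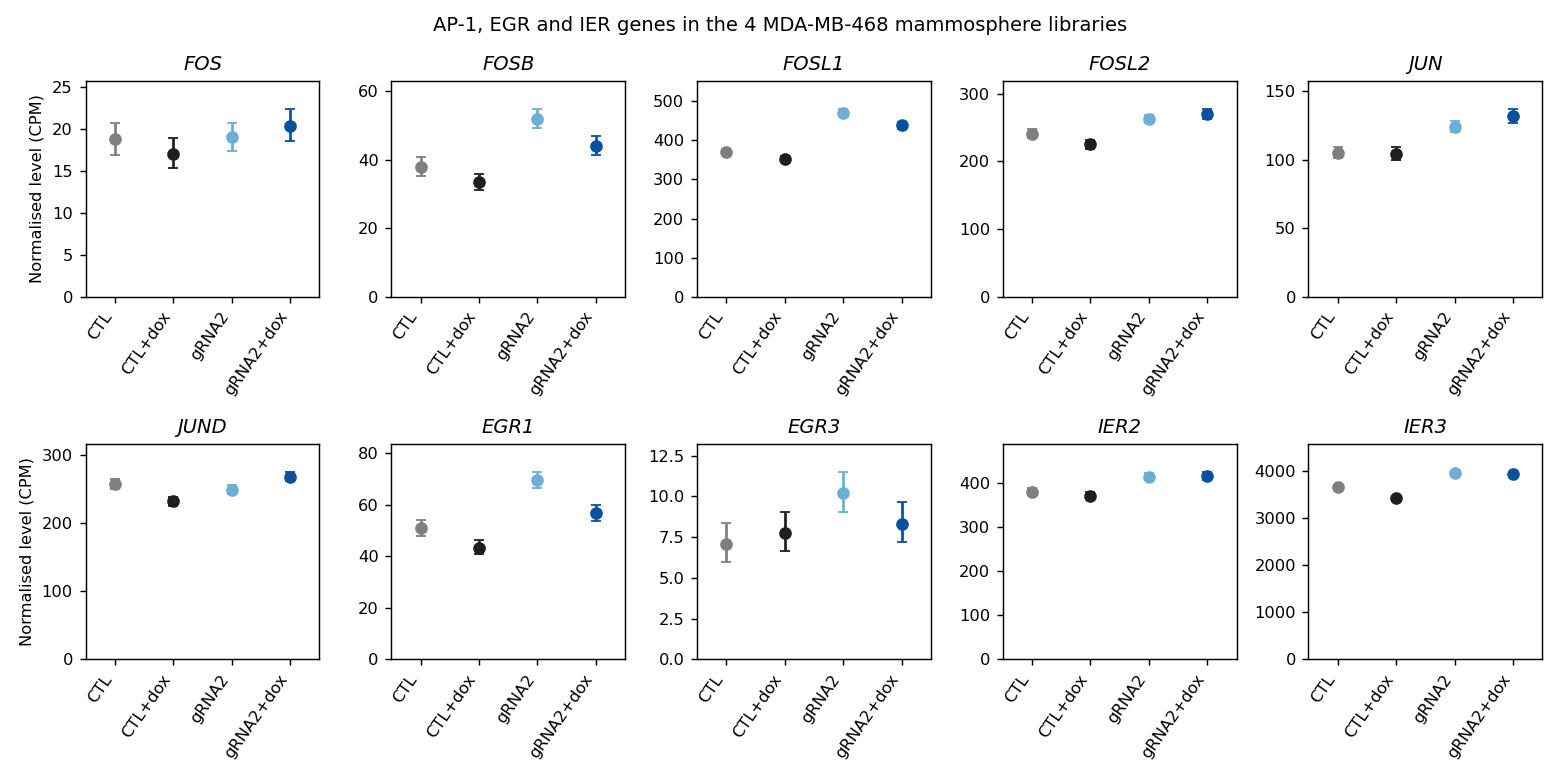
Level of each of the 10 genes in CPM (scaled counts, linear axes from 0) in CTL, CTL+dox, gRNA2 and gRNA2+dox, 1 library each; points are the libraries and bars the 95% Poisson interval of the count. The 2 gRNA2 libraries lie above the 2 CTL libraries in 9 panels, the exception being JUND, and EGR1 and FOSB show the same shape with 69.4 and 51.9 CPM in gRNA2 as their highest values.

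The clearest pattern was the difference between the pools. In 9 of the 10 genes both gRNA2 libraries were higher than both CTL libraries, and in 0 were both lower. Over the 15204 genes tested (at least 10 counts in at least 1 library) the shares were 24.8% higher and 20.5% lower, and among the 10532 genes with at least 100 counts in every library 27.9% and 19.6%. FOS was part of the 9 by a narrow margin, and the count was 8 with total-count scaling or thinned libraries. The mean of the pool ratios without and with doxycycline corresponded to 1.34-fold for FOSB, 1.33-fold for EGR1, 1.26-fold for FOSL1, 1.24-fold for EGR3 and 1.22-fold for JUN. FOSL2 followed with 1.14-fold, IER3 with 1.11-fold, FOS and IER2 with 1.10-fold each and JUND with 1.06-fold. The median of the 10 genes was 0.24 on the log2 scale, against 0.01 for all genes, whose 10th and 90th percentiles were -0.32 and 0.29. The genes are induced by common signals and are not independent observations of the pools. In a setting chosen after the data were seen, a coefficient of variation of 0.1 between cultures was added to the counting error. The interval then excluded 0 for FOSB, EGR1 and EGR3 in gRNA2 against CTL. It did so for none of the 10 genes in the 4 other comparisons described next. The shares of all genes also fell in this setting and are given in the closing section on processing.

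Without doxycycline, gRNA2 was compared with CTL, a comparison of cells that are both labelled wild type. The log2 ratio of TCOF1 was 0.02. EGR3 had a log2 ratio of 0.52 (0.23 to 0.83), FOSB 0.45 (0.32 to 0.58), EGR1 0.44 (0.33 to 0.56) and FOSL1 0.35 (0.31 to 0.39). JUN was higher by 0.24 (0.16 to 0.32), and FOSL2, IER2 and IER3 by 0.12 each. FOS had 0.02 (-0.17 to 0.22) and JUND -0.04 (-0.09 to 0.01). The interval excluded 0 on the higher side for 8 of the 10 genes and on the lower side for 0, against 19.7% and 11.8% of all genes. Among genes with at least 100 counts in every library, as all 10 had, the shares were 25.8% and 13.2%. EGR3 alone was beyond 0.5 with an interval that excludes 0, as 4.89% of all genes were in either direction, and it fell under 0.5 with DESeq2 size factors, with total counts and with thinned libraries. A log2 ratio beyond 1 with a 1% counting bound beyond 0.5, called the cutoffs of the study although it states them for lower genes and they were mirrored here for higher ones, was reached by 0 of the 10 genes and 0.566% of all genes. The median log2 ratio was 0.18 for the 10 genes and 0.03 for all genes.

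With doxycycline in both pools, gRNA2+dox was compared with CTL+dox. FOSB had a log2 ratio of 0.40 (0.26 to 0.54), EGR1 0.39 (0.26 to 0.51), JUN 0.34 (0.26 to 0.42) and FOSL1 0.32 (0.28 to 0.36). The ratios of FOSL2 and FOS were 0.26 each, that of JUND 0.21 (0.15 to 0.26), that of IER3 0.20 (0.18 to 0.21) and that of IER2 0.16 (0.12 to 0.21). EGR3 had 0.10 (-0.21 to 0.41). All 10 values were above 0. The interval excluded 0 on the higher side for 9 of them, EGR3 being the exception, against 20.8% of all genes. On the lower side it did so for 0, against 19.4%. Genes with at least 100 counts in every library had shares of 26.8% higher and 22.7% lower. None of the 10 was beyond 0.5 with an interval off 0 (8.42% of all genes), and none reached the cutoffs of the study (1.51%). The median was 0.26 against 0.0009 for all genes. This comparison and the one without doxycycline use different libraries, but both set the same 2 pools side by side.

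EGFR, the receptor for the EGF in the medium, moved in the same direction as these genes. It stood at 2679 CPM in CTL and 2455 in CTL+dox, against 3258 in gRNA2 and 3366 in gRNA2+dox, and its log2 ratio was 0.28 (0.27 to 0.30) between the pools without doxycycline and 0.46 (0.44 to 0.47) with it. Its part in the levels of the 10 genes was not tested.

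**Figure D2:**
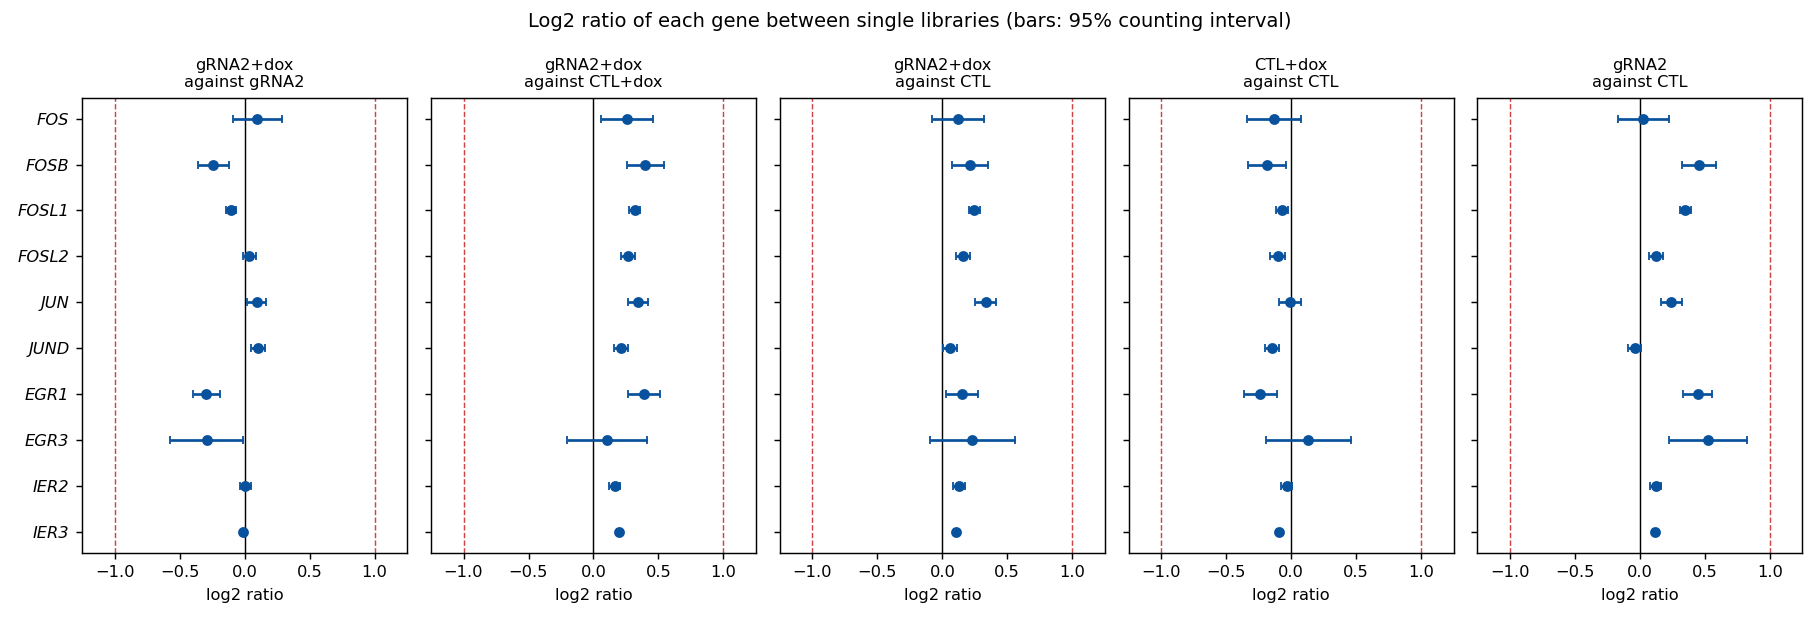
Log2 ratio of each of the 10 genes in the 5 comparisons between single libraries; points are ratios, bars the 95% counting interval, the solid line 0 and the dashed lines 1 and -1. All points lie between the dashed lines; in the comparison of gRNA2+dox with CTL+dox all 10 are to the right of 0, and in that of CTL+dox with CTL 9 are to the left.

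Doxycycline alone was followed in the CTL cells, which lack the TCOF1 guide but in which TCOF1 was also lower with the drug. EGR1 had the lowest ratio of CTL+dox to CTL, also the largest in absolute log2 size, at -0.24 (-0.36 to -0.11), which is 0.849-fold. FOSB had -0.19 (-0.33 to -0.04), JUND -0.15 (-0.20 to -0.09), FOSL2 -0.10 (-0.16 to -0.05), IER3 -0.09 (-0.11 to -0.08) and FOSL1 -0.07 (-0.12 to -0.03). FOS, JUN and IER2 were lower by less than counting error, and EGR3 had 0.13 (-0.20 to 0.46). The interval excluded 0 on the lower side in 6 of the 10 genes and on the higher side in 0, against 14.3% and 16.6% of all genes. None of the 10 was past 0.5 with an interval off 0 (3.78% of all genes) or past the cutoffs of the study (0.257%), and the median was -0.10 against 0.01.

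Within the gRNA2 pool, gRNA2+dox was compared with gRNA2, and the 10 genes divided. EGR1 had a log2 ratio of -0.29 (-0.40 to -0.19), EGR3 -0.29 (-0.57 to -0.02), FOSB -0.24 (-0.36 to -0.12) and FOSL1 -0.10 (-0.14 to -0.06). JUND was on the other side with 0.10 (0.05 to 0.15), as was JUN with 0.09 (0.02 to 0.16). FOS had 0.10 (-0.09 to 0.29), FOSL2 0.04 (-0.01 to 0.09), IER2 0.01 (-0.03 to 0.05) and IER3 -0.01 (-0.02 to 0.00). The interval excluded 0 for 4 lower and 2 higher genes of the 10, against 17.3% and 13.6% of all genes. With at least 100 counts in every library, 21.0% of genes were lower and 17.2% higher by this rule. The median was -0.0026 against -0.02 for all genes. The lower genes numbered 3 with thinned libraries and 5 with total counts. None was past 0.5 with an interval off 0 (5.12% of all genes) and none past the cutoffs of the study (0.599%).

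FOSB, FOSL1, EGR1 and IER3 were lower with doxycycline in both pools, 4 of the 10 genes against 29.0% of all genes, and 0 were higher in both, against 27.1%. The other 6 genes had opposite signs in the pools, as 43.9% of all genes did. For IER3 the ratio in gRNA2 cells was within counting error and turned positive with DESeq2 size factors and thinned libraries. The mean of both pools gave 0.832-fold for EGR1 and 0.862-fold for FOSB. The ratio of doxycycline in the gRNA2 cells minus that in the CTL cells, with a symmetric 95% interval from the standard error that counting gives, was -0.06 (-0.22 to 0.11) for EGR1, -0.05 (-0.24 to 0.13) for FOSB and -0.03 (-0.09 to 0.03) for FOSL1. In these 3 genes the pools could not be told apart in their ratio, within intervals of this width. For JUND the difference was 0.25 (0.18 to 0.33), for FOSL2 0.14 (0.06 to 0.22) and for IER3 0.08 (0.06 to 0.10). EGR3 had -0.42, with an upper limit of -0.0045, and its interval included 0 with DESeq2 size factors, total counts, a prior count of 5 and thinned libraries. These 4 of the 10 genes had an interval off 0, against 26.9% of all genes. With DESeq2 size factors or total counts the interval of JUN and IER2 also excluded 0, as did that of FOS with thinned libraries.

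**Figure D3:**
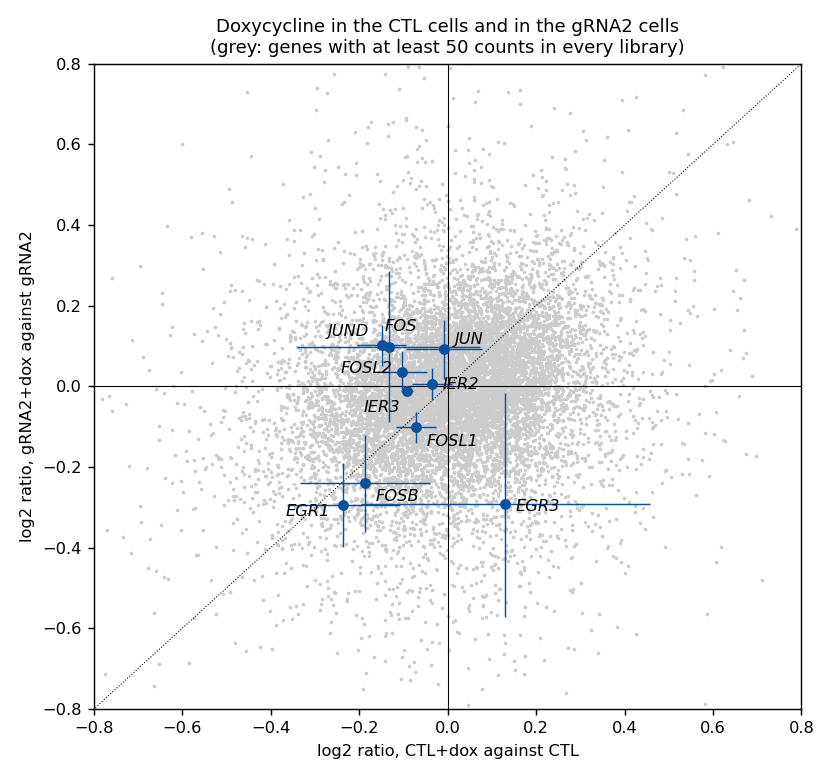
Log2 ratio of CTL+dox to CTL (horizontal) against that of gRNA2+dox to gRNA2 (vertical) for the 10 genes (blue, bars 95% counting interval) and genes with at least 50 counts in every library (grey, axes limited to 0.8 on each side). EGR1 at -0.24 and -0.29 and FOSB at -0.19 and -0.24 lie near the dotted line of equal ratios, JUND at -0.15 and 0.10 lies off it, and EGR3 has the widest bars.

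Against CTL, gRNA2+dox combines the guide with the drug. JUN had the largest log2 ratio at 0.33 (0.25 to 0.41), followed by FOSL1 at 0.25 (0.20 to 0.29), EGR3 at 0.23 (-0.09 to 0.56) and FOSB at 0.21 (0.07 to 0.35). FOSL2, EGR1, IER2, FOS and IER3 had ratios from 0.16 to 0.10, and JUND had 0.06 (0.01 to 0.11). The interval excluded 0 on the higher side for 8 of the 10 genes, the exceptions being FOS and EGR3, against 18.6% of all genes. On the lower side it excluded 0 for 0 genes, against 14.7%. Of genes with at least 100 counts in every library, 24.4% were higher and 16.2% lower in this way. Past 0.5 with an interval off 0 were 0 of the 10 genes (6.74% of all genes), and past the cutoffs of the study 0 (1.30%). The median was 0.16 against 0.01. The 3 comparisons of gRNA2+dox share that library, and 3 of the 5 comparisons share CTL, so their counts do not add up as separate evidence.

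The make-up of the FOS family was described by levels per length, since a share within a library does not depend on how libraries are scaled. The shares do depend on the length taken, that of a single canonical transcript per gene (1702 bases for FOSL1 and 6713 for FOSL2). Which transcripts these cells make was not examined. Before division by length, FOSL1 stood at 370 CPM and FOSL2 at 241 in CTL. FOSL1 held 79.8% of the family's summed level in CTL and 80.4% in CTL+dox, with 81.7% in gRNA2 and 80.7% in gRNA2+dox. FOSL2 held 11.6% to 13.2%, FOSB 3.43% to 4.05% and FOS 2.68% to 3.27%. The summed level was 272 CPM per kb in CTL and 257 in CTL+dox, against 339 in gRNA2 and 320 in gRNA2+dox, and FOSL1 made up most of the difference. FOSL1 exceeded FOS by 24.4-fold in CTL (22.0 to 27.1) and 30.5-fold in gRNA2 (27.9 to 33.5), with 25.5-fold and 26.6-fold in the doxycycline libraries.

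In the JUN family, JUNB, which is not one of the 10 genes but completes the family, held 60.4%, 62.2%, 62.7% and 60.7% in the same order of libraries. JUND held 31.9% in CTL and 29.8% in CTL+dox, with 28.8% in gRNA2 and 30.4% in gRNA2+dox, while JUN held 7.71%, 7.96%, 8.49% and 8.89%. The ratio of JUN to JUND was 0.242 in CTL (0.230 to 0.255), 0.267 in CTL+dox (0.254 to 0.280), 0.295 in gRNA2 (0.282 to 0.307) and 0.293 in gRNA2+dox (0.280 to 0.306). The 2 gRNA2 libraries were alike in this ratio, and both lay above both CTL libraries. EGR1 exceeded EGR3 per length by 10.3-fold in CTL (8.68 to 12.4), 8.03-fold in CTL+dox (6.83 to 9.48) and 9.79-fold and 9.78-fold in the gRNA2 libraries, with intervals that overlap.

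**Figure D4:**
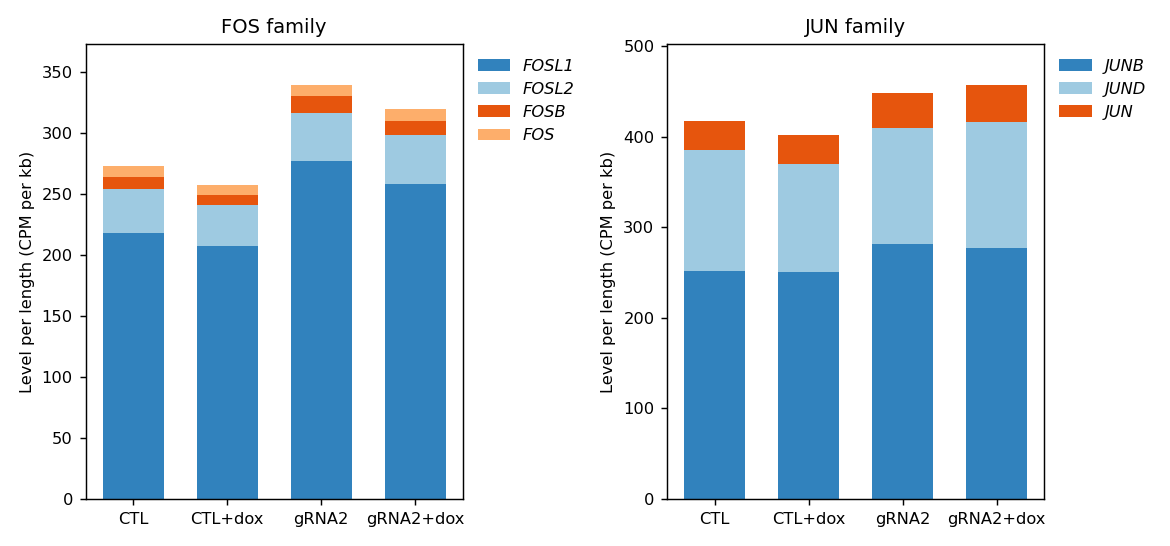
Stacked levels per transcript length (CPM per kb, linear axes from 0) of the FOS family (left) and the JUN family (right) in the 4 libraries, 1 bar each, with no error bars. FOSL1 fills 79.8% to 81.7% of the FOS bars, whose totals are 272, 257, 339 and 320, and JUNB with JUND fills most of the JUN bars.

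The genes whose pattern over the 4 libraries was most like that of EGR1 were sought among 11652 genes with at least 50 counts in every library. Likeness was the root mean square difference of log2 CPM centred over the 4 libraries. POC5, a centriole protein gene, came first with 0.0223 and FOSB second with 0.0263. POC5 stood at 4.31, 3.68, 5.80 and 4.62 CPM in CTL, CTL+dox, gRNA2 and gRNA2+dox. Of the other 8 genes FOSL1 ranked 192, EGR3 785 and FOSL2 1557, and JUND was farthest at 3771. A likeness over 4 points describes these libraries.

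Other genes of the pathway were read from lists. Of 36 further immediate early genes, 35 were tested, and in 15 of them (42.9%) both gRNA2 libraries were above both CTL libraries and in 6 (17.1%) below. JUNB was among the higher ones, at 462, 458, 514 and 508 CPM. None passed the cutoffs of the study. SOCS3, which feeds back on cytokine receptors, stood at 72.9, 83.1, 93.1 and 146 CPM and was past 0.5 in gRNA2+dox against each other library, with a log2 ratio of 0.64 (0.57 to 0.72) against gRNA2. CTGF, a secreted matricellular protein gene under YAP and SRF, stood at 13.2, 13.7, 11.1 and 7.51 CPM and was on the lower side, with -0.56 (-0.84 to -0.28) against gRNA2. EGR2 had 4 to 13 counts. Its log2 ratios, the largest of the list in absolute size in 4 of the 5 comparisons, were not distinguishable from 0 at this depth.

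Among 15 partners and inhibitors of AP-1 and EGR proteins, 13 were tested and BATF2 was the one past the cutoffs of the study. BATF2, a zipper protein that competes with FOS for JUN and is induced by interferon, had 186 counts in CTL and 210 in CTL+dox, against 281 in gRNA2 and 564 in gRNA2+dox, or 9.11, 9.32, 10.8 and 25.8 CPM. The knockout library was the high one, with log2 ratios of 1.26 (1.05 to 1.47) against gRNA2, 1.47 (1.24 to 1.71) against CTL+dox and 1.50 (1.26 to 1.75) against CTL. Its relative BATF3 had 54, 70, 66 and 99 counts and a log2 ratio of 0.83 (0.38 to 1.31) against gRNA2. In 3 of the 13 genes (23.1%) both gRNA2 libraries lay above both CTL libraries, close to the share over all genes.

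The 21 kinases and factors that induce the immediate early genes (SRF, ELK and MRTF factors, CREB1, and the ERK, JNK, p38 and RSK kinases) held 0 genes past either size rule in any of the 5 comparisons, and 5 of them (23.8%) were higher in both gRNA2 libraries. The log2 ratio of largest absolute size in gRNA2+dox against gRNA2 was that of RPS6KA5, which encodes the kinase MSK1, at -0.37 (-0.62 to -0.12). MAPK7, the gene of ERK5, led against CTL+dox with 0.37 (0.21 to 0.53). Of 15 genes of ERK feedback, 6 (40.0%) were higher in both gRNA2 libraries and 2 (13.3%) lower. DUSP2, a nuclear phosphatase of ERK, had 76, 93, 96 and 50 counts and a log2 ratio of -0.68 (-1.21 to -0.18) in gRNA2+dox against gRNA2.

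Of 22 genes known as AP-1 targets in other cells, 21 were tested, with 5 (23.8%) higher and 4 (19.0%) lower in both gRNA2 libraries. MMP1, a collagenase gene with an AP-1 site in its promoter, stood at 152, 189, 166 and 221 CPM, higher with doxycycline in both pools. EREG, an EGFR ligand gene, stood at 26.7, 25.6, 18.9 and 15.0 CPM and was lower in both gRNA2 libraries, the opposite side from the 10 genes. In gRNA2 against CTL the median log2 ratio was 0.08 for the further immediate early genes, 0.02 for the partners, 0.01 for the kinases and factors, 0.11 for ERK feedback and 0.04 for the AP-1 targets, against 0.03 for all genes. In gRNA2+dox against gRNA2 the medians were 0.0016, 0.0016, 0.02, -0.05 and -0.07, against -0.02. The lists share JUNB, EGR2, EGR4 and ATF3, and they were chosen with earlier results of these data known.

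**Figure D5:**
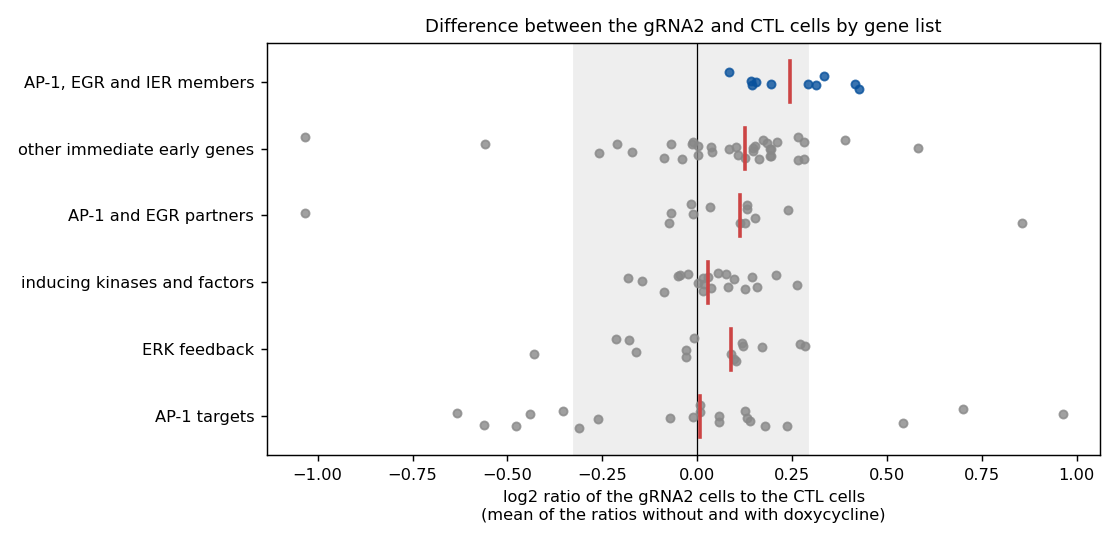
Mean log2 ratio of the gRNA2 to the CTL cells (average of the ratios without and with doxycycline) for each tested gene of 6 lists; points are genes, red bars list medians, and the grey band spans the 10th to 90th percentile of all genes, -0.32 to 0.29. The 10 genes all lie to the right of 0 with a median of 0.24, whereas the AP-1 targets spread to both sides.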

How the data were processed

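RNA was measured in 4 libraries, 1 for each condition, grouped by their titles. The authors trimmed reads with fastp, aligned them with STAR (hg38 by the submitters' processing notes) and deposited STAR's counts per gene, which are not normalized. They used GFOLD for fold changes and had no replicates. The annotation is not given in the sources used here. Of the reads with a strand, 49.0% to 49.1% were on the first, so the unstranded counts were used. Reads on genes were 79.7% to 81.0% of each library, and the lines for unassigned reads were left out. 

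Libraries were scaled with edgeR 4.0.16 (TMM over all genes, factors 1.02, 1.00, 0.990 and 0.985) in R 4.3.3, and log2 ratios used a prior count of 0.5. A gene was tested where 1 library or more had 10 counts, which kept 15204 of 26475 genes and all 10 members. The 1% bound follows the idea of GFOLD, was computed from the Poisson posterior of the ratio in place of that tool, and was tested on simulated data. Other rules were a log2 ratio beyond 0.5 with a 95% interval off 0 and, added after the data were seen, the interval alone, the order of the pools and the sign of the doxycycline ratio in both pools. Python 3.11.15, numpy 2.4.6 and scipy 1.17.1 were used. Lengths were those of the canonical transcript of each gene in GENCODE 44 lifted to GRCh37. Positions and promoters came from RefSeq on GRCh38.p14, with TGACGT searched as a later addition. The enhancer sites were read on GRCh37. A planned comparison of the proteins was not run.

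The 10 genes and the lists were chosen with earlier results of these data known. Named from each other list were the genes past the cutoffs of the study and the gene of largest absolute log2 ratio in a comparison; the genes nearest to the member of widest range were also named by rule, and some of the genes these rules name are not reported here. JUNB, EGFR, SOCS3, CTGF, BATF3, MMP1 and EREG were chosen after their values were seen, and of the largest-ratio genes those resting on few counts or small ratios are left out of the text. Other settings tried were size factors of DESeq2 1.42.0, total counts, a prior count of 5, libraries thinned to the smallest total, no filter, at least 50 counts, a 5% bound, the log2 ratio alone and an added coefficient of variation of 0.1. Counting error, as the distance from a level to the ends of its 95% interval, was 0.611% to 0.718% of the level for IER3 and 12.2% to 16.6% for EGR3.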

Additional observations from a re-analysis of the deposited data

Results flagged for a closer look

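In 6 of the 10 genes, against 43.9% of all genes tested, the ratio with doxycycline had opposite signs in the pools, and the difference between the pools was not tested, since each condition had 1 library. The log2 ratio in gRNA2 cells minus that in CTL cells was 0.23 for FOS (-0.04 to 0.51 by counting error), 0.14 for FOSL2, 0.10 for JUN (-0.01 to 0.21), 0.25 for JUND, -0.42 for EGR3 and 0.0418 for IER2 (-0.02 to 0.10). JUND stood at 232 CPM with and 257 without doxycycline in the CTL cells, and at 268 with and 249 without it in the gRNA2 cells. For FOS, JUN and IER2 the interval included 0, and for EGR3 its upper limit was -0.0045. With DESeq2 size factors or total counts the intervals of JUN and IER2 excluded 0, with thinned libraries that of FOS did, and under each of these settings that of EGR3 included it. The count of genes with opposite signs was 7 with DESeq2 size factors and with thinned libraries, where IER3 joined, and 5 with total counts.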

How the results depend on the processing

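No paired analysis was possible because only 1 library stood for each condition, and for the same reason no replicate could be left out. Scaling by DESeq2 size factors or total counts moved the median log2 ratio of all genes by -0.0544 to 0.0138. Of the 50 log2 ratios of the 10 genes, 1 changed sign with DESeq2 size factors, 2 with total counts, 2 with thinned libraries and 0 with a prior count of 5, the largest of them 0.0248 in size. The difference of the doxycycline ratios for IER3 was 0.11 with DESeq2 size factors, 0.10 with total counts and 0.10 with thinned libraries, against 0.08. EGR3 left the genes past 0.5 in gRNA2 against CTL under those 3 settings, so that the count was 0. Under the same 3 settings JUND joined the genes with an interval on the lower side in that comparison, a count of 1. An added coefficient of variation of 0.1 between cultures, chosen after the data were seen, took the genes whose interval excludes 0 to 0 in every comparison with gRNA2+dox and in CTL+dox against CTL, and to 3 higher genes (FOSB, EGR1 and EGR3) in gRNA2 against CTL. It also took the genes whose doxycycline ratio differed between the pools to 0. The shares of all genes then fell to between 1.52% and 4.84%. Other counts of members stayed within 1.5 times. Variation between cultures was not measured, and EGR3 is limited by its depth.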
